A study of Homo sapiens with 4 samples.

Results

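The hypoxia miRNA miR-210 was followed through its guide arm, hsa-miR-210-3p, in the small RNA libraries of 4 colorectal cancer cell lines. It was picked by name, with earlier results of these data known, and is 1 of the 1474 miRNAs with at least 1 count in the series. HCT116 and RKO are established cell lines of human colorectal tumors. Their derivatives HCT116-R and RKO-R are the acquired radioresistant lines grown out of them after repeated doses of 4 Gy up to 40 Gy in total, and they were kept for at least 3 weeks without irradiation before the assays. All 4 lines were grown in the same medium under air with added CO2, low oxygen was not part of the design, and whether the radioresistant lines are clones is not stated. Each line has 1 library, sequenced on the BGISEQ-500 platform, so no difference below has a replicate check.

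MiRNAs are short RNAs cut from hairpin precursors. The strand loaded into Argonaute pairs through its seed with target mRNAs and lowers their output. MiR-210 is transcribed under the hypoxia-inducible factor HIF1A and is the miRNA most regularly induced when cells lack oxygen. Its known targets include ISCU, an iron-sulfur cluster scaffold of the mitochondria, and RAD52, a protein of homologous recombination, and it has been linked to radioresistance in hypoxic tumor cells. Neither HIF1A nor any target mRNA was measured in these libraries.

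The mature arms and a miRNA that shares part of a seed are shown first, as given by RefSeq (GRCh38.p14) from 5′ to 3′, with the seed at bases 2 to 8 in capitals because the seed sets the targets of an arm.
hsa-miR-210-3p: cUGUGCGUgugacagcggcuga
hsa-miR-210-5p: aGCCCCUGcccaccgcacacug
hsa-miR-147b-3p: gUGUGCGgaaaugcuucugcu
Among 2370 mature human miRNAs of the RefSeq table, 0 others had the seed of miR-210-3p and 0 others had that of miR-210-5p. MiR-147b-3p, in which the shared bases 2 to 7 are in capitals, was the only other miRNA with those 6 bases of miR-210-3p, and it was listed in none of the 4 libraries. The full sequence of miR-210-3p occurred in no other of the 1562 hairpins, and no hairpin held its reverse complement. The first 16 bases of miR-210-3p were likewise found in no other hairpin. Thus no other annotated hairpin held an exact copy or antisense match of it. Matches with mismatches were not searched for.

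Both arms come from the hairpin MIR210 on the minus strand of chromosome 11, at chr11:568089-568198 (GRCh38). The mature bases are in capitals, the 5p arm first, and the 3p arm lies at chr11:568112-568133 and the 5p arm at chr11:568150-568171.
MIR210 hairpin: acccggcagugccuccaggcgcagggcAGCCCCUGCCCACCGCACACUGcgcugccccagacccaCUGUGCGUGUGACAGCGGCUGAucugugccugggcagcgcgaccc
The hairpin is intronic in all 4 transcripts of its host, the long non-coding RNA gene MIR210HG (GENCODE release 29, chr11:565660-568457). It begins 259 bases downstream of the start of the host. Within 1000000 bases of MIR210, RefSeq lists 2 other hairpins with 4 mature arms. Only miR-6743-3p among these was listed, with 1 count in each HCT116 library and 4 in each RKO library.

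The start of MIR210HG is shown because hypoxia-response elements, the DNA sites of the HIF1A dimer, have the core ACGTG or GCGTG. The window at chr11:568408-568707 on the minus strand (RefSeq, GRCh38.p14) holds 250 bases before the start and 50 after it, with both cores in capitals.
MIR210HG promoter: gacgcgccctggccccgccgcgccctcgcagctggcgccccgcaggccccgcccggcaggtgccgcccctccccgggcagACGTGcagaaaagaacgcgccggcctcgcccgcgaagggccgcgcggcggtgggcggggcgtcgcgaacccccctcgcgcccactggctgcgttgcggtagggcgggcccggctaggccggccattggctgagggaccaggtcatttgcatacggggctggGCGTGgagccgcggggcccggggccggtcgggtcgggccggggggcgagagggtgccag
Both strands were searched for both cores, and the 2 matches, which do not overlap, stand at -170 and -9 from the start. At least 1 match to either core is present in 48.4% of 35116 promoter windows of the same length, and at least 2 in 23.1%. Such matches are common, and no binding was measured here.

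**Figure D1:**
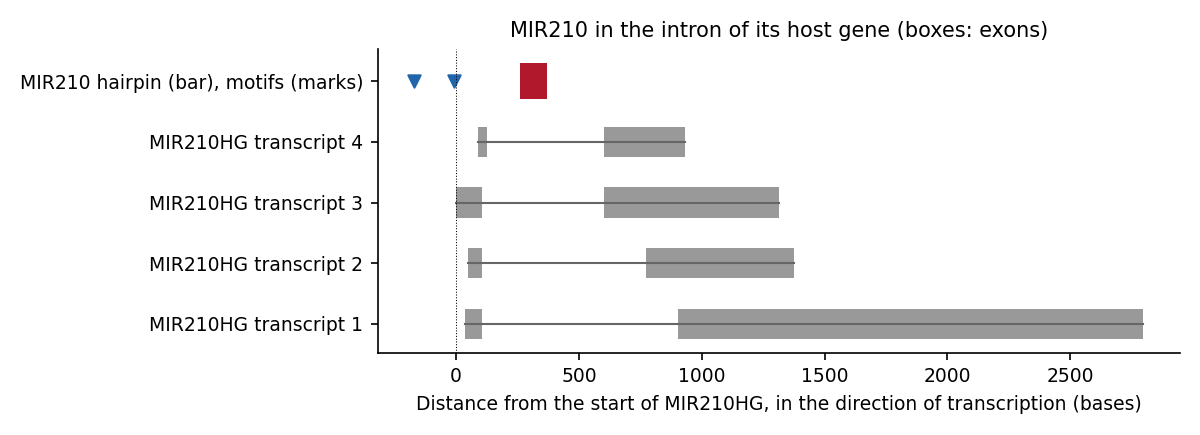
The map places the MIR210 hairpin (red bar) and the 2 core matches (blue marks) against the exons (grey boxes) of the 4 annotated MIR210HG transcripts. The x axis is the distance in bases from the start of the host gene, and the hairpin begins at 259, between the exons of every transcript.

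Library totals ranged from 6818497 counts in HCT116-R to 7140460 in RKO, and the smallest level they can show, taken as 3 counts, was 0.42 to 0.44 CPM (the count divided by the library total and multiplied by 1000000). As a check of the labels, the 9 markers of colorectal epithelium summed to 63650 and 59230 CPM in HCT116 and HCT116-R, but to 10540 and 12240 CPM in RKO and RKO-R. MiR-215-5p was at 0 in HCT116, RKO and RKO-R. The 200c member of the miR-200 family, miR-200c-3p, had 291469 and 286432 counts in the HCT116 libraries and 649 and 1426 in the RKO libraries. By the test described below, 3 of 8 counted epithelial markers were lower in RKO than in HCT116, 0 higher and 5 not called. In RKO-R against HCT116-R, 1 of 9 was higher, 2 were lower and 6 not called. These tests called 25.5% and 23.2% of all miRNAs. MiR-200c-3p itself was higher in RKO-R than in RKO (log2 ratio 1.42, edgeR exact test, adjusted p = 0.0241). Of the markers of other cells, the 3 of stroma and vessels summed to 8338 CPM in RKO and 8095 in RKO-R, nearly all of it miR-126-3p, and to 4248 and 3606 CPM in the HCT116 libraries. The 5 of blood cells summed to 8.40 CPM in RKO, 5.64 in RKO-R and 26.7 and 23.8 in the HCT116 libraries. Of these 5, 1 was called lower in HCT116-R than in HCT116 and 0 higher, where 4.01% of all miRNAs were called. It was miR-223-3p, with 54 counts in HCT116 and 6 in HCT116-R (log2 ratio -3.16, edgeR exact test, adjusted p = 0.000187). The muscle list stayed between 0.84 and 1.76 CPM and the neuron list between 0.88 and 2.89 CPM over the 4 libraries. The single liver marker, miR-122-5p, ranged from 2.60 CPM in RKO-R to 82.1 CPM in HCT116. It was called lower in both radioresistant lines than in their parents. The counts were 560 in HCT116 and 62 in HCT116-R (log2 ratio -3.19, edgeR exact test, adjusted p = 1.73e-09). In RKO and RKO-R they were 109 and 18 (log2 ratio -2.31, edgeR exact test, adjusted p = 0.00109).

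MiR-210-3p was detected in all 4 libraries at a modest level. In RNA of whole cultures, fewer cells with a miRNA and less of it per cell cannot be told apart. The count was 119 (HCT116), 151 (HCT116-R), 51 (RKO) and 336 (RKO-R). In CPM with a 95% exact (Clopper-Pearson) interval, these were 17.4 (14.5 to 20.9), 22.1 (18.8 to 26.0), 7.14 (5.32 to 9.39) and 48.6 (43.5 to 54.1). RKO was the lowest and RKO-R the highest, and both HCT116 libraries lay between them. The intervals of HCT116 and HCT116-R overlapped, and all others were apart. These intervals cover counting error only, since 1 library gives no spread between cultures and the use of the molecular identifiers in counting is not stated. By abundance, miR-210-3p was 279th of the 1105 miRNAs listed (HCT116), 258th of 1198 (HCT116-R), 314th of 1006 (RKO) and 172nd of 992 (RKO-R). It stood beside miR-744-3p (126 counts) and miR-296-5p (118) in HCT116, and beside miR-550a-5p (153) and miR-374b-3p (151) in HCT116-R. In RKO, miR-143-3p and miR-3115 had the same 51 counts, and in RKO-R its neighbours were miR-324-3p (375) and miR-3187-3p (328).

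**Figure D2:**
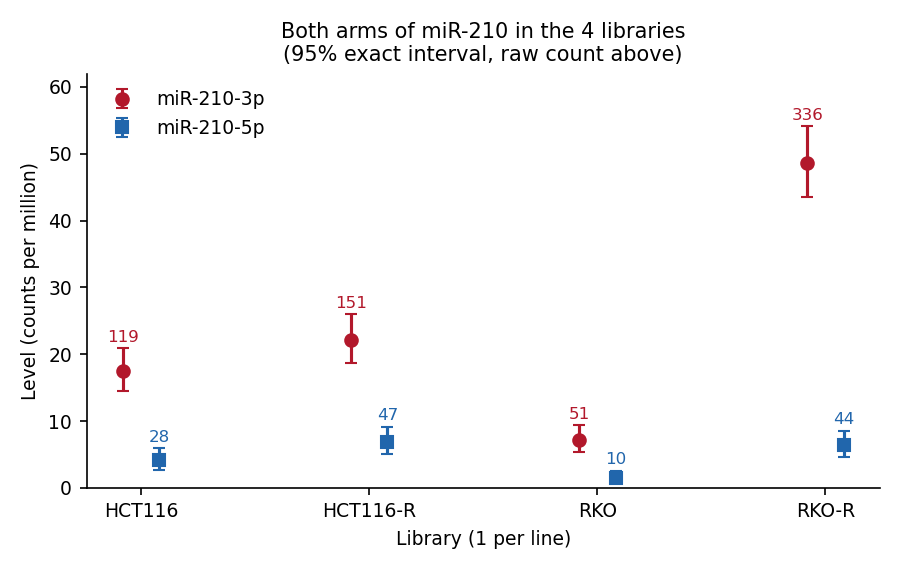
Levels of miR-210-3p (red circles) and miR-210-5p (blue squares) in CPM in each of the 4 libraries, with 95% exact intervals for counting error and the raw count above each point. MiR-210-3p goes from 7.14 CPM in RKO to 48.6 in RKO-R, while its intervals in HCT116 and HCT116-R overlap.

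Whether acquired radioresistance went with a change of miR-210-3p was asked within each line. The radioresistant and parental libraries of a line were compared by edgeR's exact test, with TMM scaling and the biological coefficient of variation (BCV) of 0.2 that the methods name. A miRNA was called at a Benjamini-Hochberg adjusted p under 0.05 over all miRNAs with a count in the pair. The test compares libraries, not conditions, and both the p-value and the standard error (SE) depend on that BCV.

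MiR-210-3p rose in RKO-R and was not called in HCT116-R. In the RKO pair, 51 counts in RKO stood against 336 in RKO-R, a CPM ratio of 6.80 (95% exact interval 5.06 to 9.33 from counting). The log2 ratio, which is the log2 fold change after TMM, was 3.0 ± 0.46 (SE; edgeR exact test, adjusted p = 6.01e-08). In this pair 5.54% of 1155 miRNAs were called, 29 higher and 35 lower. The split was 20 higher and 54 lower by library totals, and 32 higher and 56 lower after a filter of 10 counts in either library. The call was lost at a BCV of 0.4 (edgeR exact test, adjusted p = 0.118) and at an estimated BCV of 0.481 (adjusted p = 0.718). That estimate came from a model of the 4 libraries with terms for line and radioresistance, with 1 residual degree of freedom. An unequal change of the lines counts as spread in it. The median log2 ratio of the 436 miRNAs with at least 10 counts in both libraries was 0.03 after TMM and -0.20 by library totals, and by library totals miR-210-3p changed by 2.76.

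In the HCT116 pair, 119 counts stood against 151, a CPM ratio of 1.27 (95% exact interval 0.992 to 1.63 from counting). The log2 ratio was 0.32 ± 0.44 (SE; edgeR exact test, adjusted p = 1), where 4.01% of 1322 miRNAs were called. The ratio was above 1 in this library pair, and its counting interval reached just under 1. At the assumed BCV, differences of this size were not detectable with 1 library per line.

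The difference between the pairs was tested in itself, with the interaction of cell line and radioresistance in an edgeR model of all 4 libraries at the same BCV. The log2 ratio of miR-210-3p was higher in the RKO pair by 2.64 ± 0.64 (SE; edgeR likelihood ratio test, adjusted p = 0.00197). Such a difference was called for 4.75% of 1474 miRNAs. At a BCV of 0.4 it was no longer called (edgeR likelihood ratio test, adjusted p = 0.528).

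The lines also differed from each other. In the parental lines miR-210-3p was lower in RKO than in HCT116, by a log2 ratio of -1.41 ± 0.47 (SE; edgeR exact test, adjusted p = 0.0153). In the radioresistant lines the order was turned, and RKO-R was above HCT116-R by 1.47 ± 0.43 (SE; edgeR exact test, adjusted p = 0.00553). Calls between the lines were frequent, at 25.5% of 1289 miRNAs for the parental and 23.2% of 1333 for the radioresistant libraries. TMM moved the median of the miRNAs with at least 10 counts in both libraries from 0.06 to -0.07 for the parental lines and from -0.19 to 0.14 for the radioresistant lines, and by library totals miR-210-3p stood at -1.29 and 1.13. Neither comparison of the lines was called at a BCV of 0.4 (adjusted p = 0.397 and 0.389 from the edgeR exact test). In the order RKO, HCT116, HCT116-R, RKO-R, RKO and HCT116 differed by the test, as did HCT116-R and RKO-R, while HCT116 and HCT116-R did not pass it. The level in RKO-R, 48.6 CPM, was also 2.20 times that in HCT116-R by CPM (95% exact interval 1.81 to 2.68), so it lay above every other library of the series.

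The other arm, miR-210-5p, usually the discarded strand, was less abundant in all 4 libraries. The count was 28 (HCT116), 47 (HCT116-R), 10 (RKO) and 44 (RKO-R), or 4.10, 6.89, 1.40 and 6.36 CPM. RKO was again the lowest, and HCT116-R and RKO-R were close to each other. In the RKO pair miR-210-5p rose by a log2 ratio of 2.40 ± 0.65 (SE; edgeR exact test, adjusted p = 0.00774). This call too was lost at a BCV of 0.4 (edgeR exact test, adjusted p = 0.696). In the HCT116 pair its log2 ratio was 0.72 ± 0.53 (SE; edgeR exact test, adjusted p = 0.849). The difference between the pairs did not pass the test, at 1.65 ± 0.84 (SE; edgeR likelihood ratio test, adjusted p = 0.325). Both arms come from one transcript, so they are not independent measures of the hairpin.

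The 3p arm held most of the counts of the hairpin everywhere. Its share was 81.0% in HCT116 (95% exact interval 73.7 to 87.0), 76.3% in HCT116-R (69.7 to 82.0), 83.6% in RKO (71.9 to 91.8) and 88.4% in RKO-R (84.8 to 91.5). The intervals of HCT116-R and RKO-R were apart, and those of each parental and radioresistant pair overlapped. The 3p arm had 3.21 to 7.64 counts for each count of the 5p arm.

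By its log2 ratio in the RKO pair, miR-210-3p was 162nd of all 1155 miRNAs tested, a rank that includes miRNAs with few counts. Of 272 miRNAs that reached 100 counts in RKO or RKO-R, it was 7th. It reached 100 counts only in RKO-R, the library where it was higher, so that place is a description and partly follows from the limit. The 6 above it were miR-3529-3p (8.99) and miR-3184-3p (8.34), then miR-12136 (4.17), miR-1307-5p (3.67), miR-143-3p (3.64) and miR-103a-3p (3.27). Another annotated miRNA lies opposite 3 of these, miR-3529-3p, miR-103a-3p and miR-3184-3p, but none lies opposite miR-210-3p. MiR-3529-3p went from 827 to 346251 counts while its partner miR-7-5p went from 367030 to 284, and miR-3184-3p from 50 to 13335 while miR-423-5p went from 11237 to 10. The same divisions moved in the HCT116 pair, where miR-3529-3p went from 1087 to 524339 counts, and whether strand was used in counting is not stated. The part of this shift in the rank of miR-210-3p was not tested. MiR-143-3p, a marker of stroma in the lists used, went from 51 to 522 counts in the RKO pair and from 1733 to 829 in the HCT116 pair. The part of the markers of other cells in these values was not tested. By counts, RKO-R exceeded both HCT116 libraries for miR-210-3p, miR-12136, miR-1307-5p and miR-103a-3p, but not for miR-143-3p, miR-3529-3p or miR-3184-3p. In the HCT116 pair, miR-210-3p was 584th of 1322 miRNAs tested and 72nd of the 318 that reached 100 counts.

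**Figure D3:**
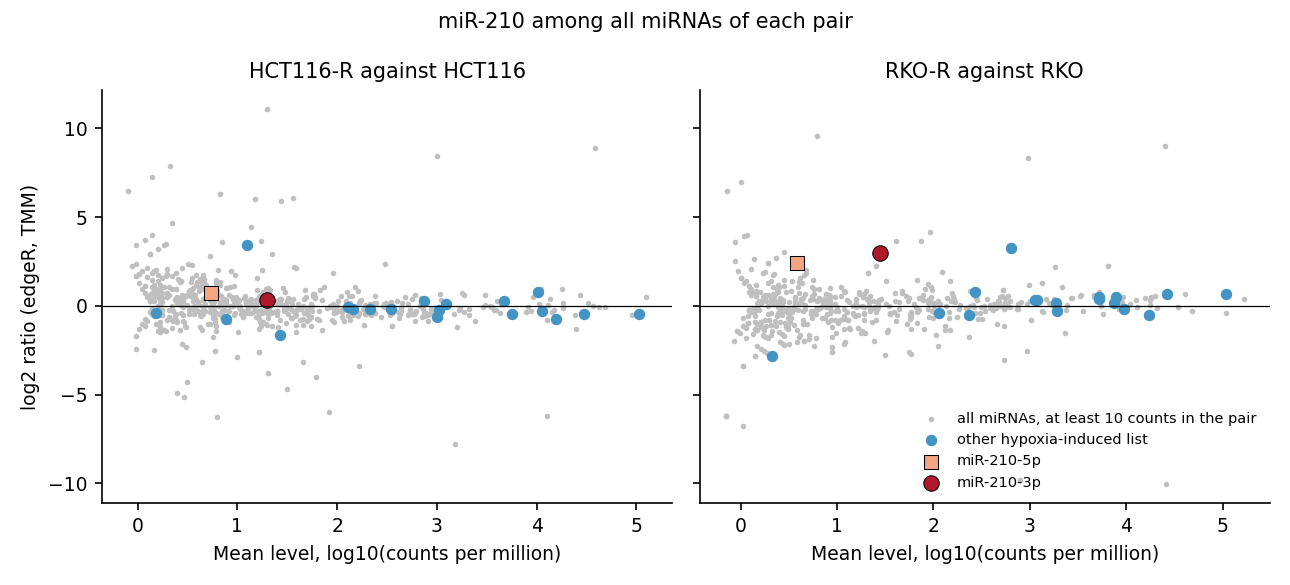
Log2 ratio (edgeR, TMM) against the mean level, log10 of CPM, for every miRNA with at least 10 counts in a library of the pair. MiR-210-3p (red circle) and miR-210-5p (square) stand at 3.0 and 2.40 in the RKO pair and at 0.32 and 0.72 in the HCT116 pair, and blue points are the other miRNAs of the hypoxia-induced list. Points of miRNAs at 0 in a library depend on the prior count.

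MiR-210-3p is rich in G and C, at 63.6% of its 22 bases. Of the 436 miRNAs with at least 10 counts in both libraries of the RKO pair, 384 had a GC content to compare. Among these, 80 were within 5 percentage points of miR-210-3p. Their median log2 ratio in RKO-R was -0.08 with a highest value of 1.83, and 0 of 80 reached that of miR-210-3p. In the HCT116 pair, where 465 of 526 had a GC content to compare, the median of 94 such miRNAs was -0.02, and 30 of them were at or above miR-210-3p.

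Other miRNAs commonly given as induced by hypoxia were set beside it, as a list of 22 with miR-210-3p itself. Of the 21 with a count in the HCT116 pair, 1 was called higher, 1 lower and 19 were not called, where 4.01% of all miRNAs were called. Between RKO and RKO-R 2 were called higher, 1 lower and 18 were not called, where 5.54% of all miRNAs were called. The 2 called higher were miR-210-3p itself and miR-103a-3p. Without miR-210-3p, the median log2 ratio of the other 20 was -0.22 for HCT116-R and 0.34 for RKO-R, beside 0.07 and 0.02 over all miRNAs tested. With members at 0 counts in a library set to the floor of 3 counts, and 1 member at or under the floor in both left out, these medians were -0.26 and 0.33 over 19 miRNAs. MiR-373-3p had no count in any library.

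The list members called in the HCT116 pair were miR-155-5p and miR-103a-3p. MiR-155-5p, a miRNA of inflammation, rose from 14 to 157 counts in the HCT116 pair (log2 ratio 3.46, edgeR exact test, adjusted p = 4.21e-08). Its counts in RKO and RKO-R were 33913 and 39597, and it was not called there (log2 ratio 0.51). MiR-103a-3p, whose family targets DICER1, fell from 275 to 90 counts in the HCT116 pair (log2 ratio -1.63, edgeR exact test, adjusted p = 0.0104). It rose from 1001 to 7928 counts between RKO and RKO-R (log2 ratio 3.27, edgeR exact test, adjusted p = 4.1e-11). Its close relative miR-107 fell from 27 to 3 counts in the RKO pair (log2 ratio -2.84, edgeR exact test, adjusted p = 0.0373). MiR-103a-3p and miR-107 have nearly the same sequence, so both are uncertain taken singly. MiR-103b, on the strand opposite to miR-103a-3p, went from 6939 to 695 counts between RKO and RKO-R. MiR-103a-3p and miR-103b together gave 7940 and 8623 counts there, and 4976 and 3642 in the HCT116 pair. Summed in this way, the counts moved far less than those of miR-103a-3p alone.

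A further 14 members had at least 100 counts in every library, and none of these was called in either pair. Their log2 ratios ranged from -0.72 (miR-27a-3p) to 0.76 (miR-24-3p) for HCT116-R and from -0.54 (miR-125b-5p) to 0.79 (miR-192-5p) for RKO-R. MiR-21-5p, the widely induced oncogenic miRNA, was at -0.43 and 0.69, and miR-26a-5p at -0.47 and 0.68. Values above 0 were found for 9 of the 14 in the RKO pair, and in the HCT116 pair 4 of the 14. The value of miR-210-3p in the RKO pair, 3.0, was above this range, but with 51 counts in RKO it did not meet the limit itself. Members left out by the limit had wider ratios in that pair, such as 3.27 for miR-103a-3p and -2.84 for miR-107.

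**Figure D4:**
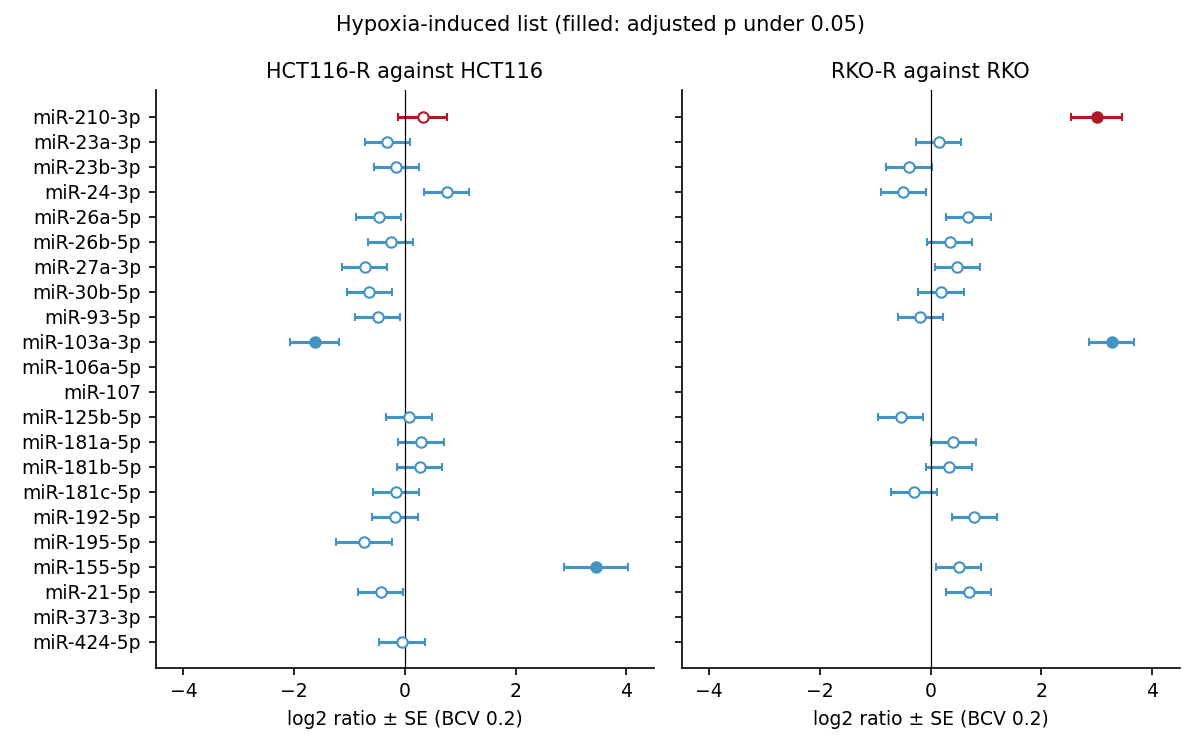
Log2 ratio with its SE at a BCV of 0.2 for the 22 miRNAs of the hypoxia-induced list in each pair, drawn where both libraries had at least 10 counts and filled where the adjusted p was under 0.05. In the RKO pair miR-210-3p (red) and miR-103a-3p stand near 3 and the other points lie between -0.54 and 0.79.

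The reverse relation was looked at with 9 miRNAs reported to target HIF1A. In the HCT116 pair 8 had a count, of which 0 were called higher and 1 lower (4.01% of all miRNAs were called), with a median log2 ratio of -0.20 beside 0.07 over all tested. For the RKO libraries 7 had a count, of which 1 was called higher and 0 lower (5.54% of all miRNAs), with a median of 0.44 beside 0.02 over all tested. The call in both pairs was miR-199a-5p, whose count was 256 (HCT116), 19 (HCT116-R), 0 (RKO) and 86 (RKO-R). Against the floor of 3 counts in RKO, its log2 ratio in the RKO pair was at least 5.12 (edgeR exact test, adjusted p = 3.93e-12), and it was -3.76 in the HCT116 pair (adjusted p = 1.82e-10). Of the members of the miR-17-92 cluster, miR-17-5p was at -0.23 and -0.29, miR-18a-5p at -0.17 and 0.44, and miR-20a-5p at 0.03 and 0.27 in the HCT116 and RKO pairs, and none was called.

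The profile of miR-210-3p over the 4 libraries was compared with those of 203 other miRNAs with at least 100 counts in every library, by the Euclidean distance of centred log2(CPM + 1). The nearest was miR-652-3p at 0.868, followed by miR-183-5p at 1.09, let-7c-5p at 1.44, miR-590-3p at 1.48 and miR-328-3p at 1.49, where the median distance was 2.21. For miR-652-3p the counts were 16785 (HCT116), 11971 (HCT116-R), 5423 (RKO) and 20111 (RKO-R). MiR-183-5p, of the miR-183 cluster, had 70240, 75039, 18332 and 72117 counts in the same order. In both, RKO was the lowest library, as for miR-210-3p. The log2 ratios in the RKO pair were 2.17 for miR-652-3p, 2.26 for miR-183-5p and 1.91 for let-7c-5p, all called. MiR-590-3p at 1.17 and miR-328-3p at 1.23 were not called (edgeR exact test, adjusted p = 0.076 and 0.0614). The choice by profile used these same libraries, so a higher level in RKO-R follows from it. With 4 libraries, likeness of this kind is a description only, and with at least 10 counts in every library 2 of the 5 were among the nearest 5.

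MiR-210-3p was also scaled to 5 miRNAs often used as references, miR-16-5p, miR-25-3p, miR-93-5p, miR-191-5p and miR-103a-3p. For each 1000 reference counts there were 0.240 (HCT116), 0.355 (HCT116-R), 0.0976 (RKO) and 0.835 (RKO-R) of miR-210-3p. On this scale its log2 ratio was 0.56 for HCT116-R and 3.09 for RKO-R (edgeR exact test, adjusted p = 0.854 and 1.73e-08). Of the references themselves, miR-103a-3p was called in both pairs and the other 4 in neither. In the HCT116 pair all 5 had log2 ratios below 0, with a median of -0.81. Between the lines, 3 of the 5 were called higher in RKO-R than in HCT116-R, and 1 in RKO than in HCT116. Those comparisons called 23.2% and 25.5% of all miRNAs.

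**Figure D5:**
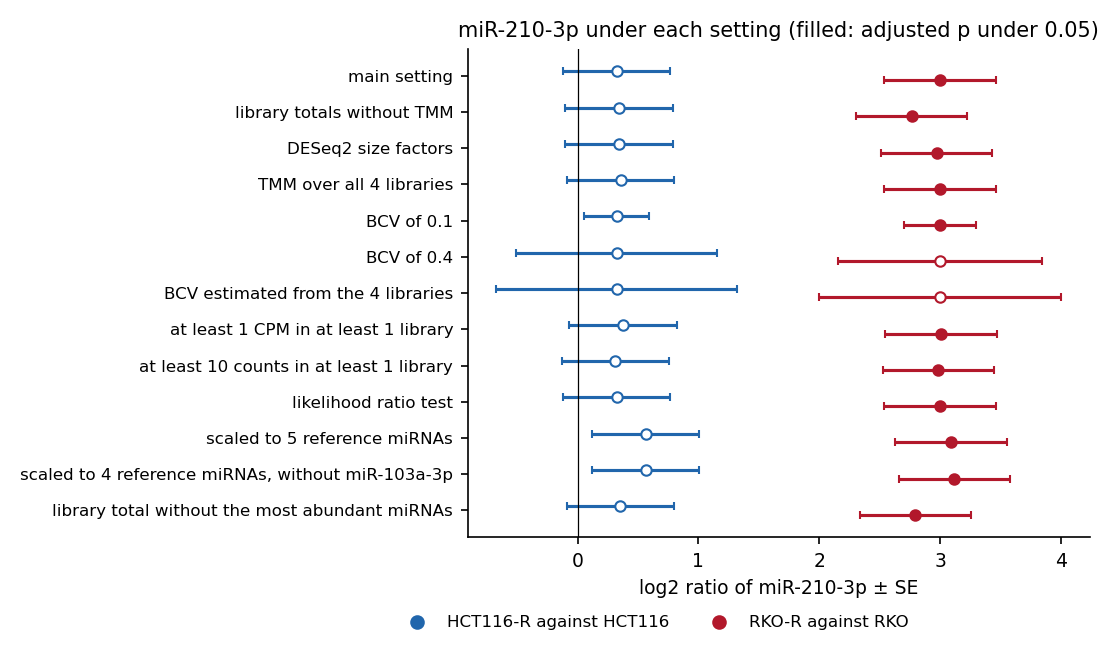
Log2 ratio of miR-210-3p with its SE in the HCT116 pair (blue) and the RKO pair (red) under each scaling, filter, BCV and test, filled where the adjusted p was under 0.05. Blue values run from 0.31 to 0.56 and red values from 2.76 to 3.12, and the RKO points are open at a BCV of 0.4 and at the estimated BCV.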

How the data were processed

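Total RNA of the 4 lines was size-selected for small RNA, and adapters with unique molecular identifiers were ligated before sequencing on the BGISEQ-500 platform. The authors deposited raw read counts per mature miRNA, 1 table per library, listing miRNAs with at least 1 count. The submitters' processing notes name Bowtie2 and hg38. The miRNA annotation, the use of strand and the collapse of identifiers are not given in the sources used here.

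Tables were joined by miRNA name, with a missing miRNA given 0 counts, and divided by library totals to give CPM. Groups came from the sample labels and doses from the methods. Pairs were compared with the exact test of edgeR 4.0.16 (R 4.3.3) with TMM and a BCV of 0.2, with the Benjamini-Hochberg adjustment taken across every miRNA counted in the pair. The interaction was tested with the edgeR likelihood ratio test. SE values were derived from the counts and the BCV. Tests were tried on data simulated at the same BCV of 0.2 that they assume, so this could not check that BCV. Alternatives covered scaling, including DESeq2 1.42.0 size factors, filters, the BCV and the test. One of them, scaling to the references without miR-103a-3p, and all those of miR-210-5p were chosen after seeing the data.

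Named were both arms of miR-210, list members called in a radioresistant pair, 14 hypoxia-list members by their range, the 5 nearest profiles, the rank neighbours, and miRNAs of the same locus or seed. The miR-17-92 members, miR-215-5p, miR-373-3p, the 6 larger rises in RKO-R and the miRNAs opposite to them were chosen after their values were seen. The miRNA and all lists were chosen with earlier results of these data known. Sequences are from RefSeq tables (GRCh38.p14) and gene models from GENCODE release 29, the same assembly as hg38. Tables and figures were made in Python 3.11.15 (scipy 1.17.1, matplotlib 3.10.9, numpy 2.4.6, pandas 2.3.3).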

Additional observations from a re-analysis of the deposited data

Results flagged for a closer look

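The change of miR-210-3p differed between the cell lines by a test of the difference itself. The log2 ratio was higher by 2.64 in the RKO pair than in the HCT116 pair (SE 0.64, adjusted p = 0.00197 from the edgeR likelihood ratio test at a BCV of 0.2), with counts of 51 and 336 in the RKO pair against 119 and 151 in the HCT116 pair. With 1 library per line, a difference of the lines and a difference of single libraries cannot be told apart.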

How the results depend on the processing

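The fit of both lines with a term for the line, given among the other observations, pairs each radioresistant line with its parent. It left 1 residual degree of freedom and gave miR-210-3p a log2 ratio of 1.62 (edgeR quasi-likelihood test, adjusted p = 0.998). The tests within a line have no replicate, because each line has 1 library. For the same reason no library could be left out. The log2 ratio of miR-210-3p kept its direction under all 13 alternatives in each of the 4 pairs of libraries, and under all 5 for the difference between the lines (2.42 to 2.88). Alternatives of the BCV, the test and the p adjustment left the ratio itself unchanged. Only those of scaling and filters could have turned its direction. At a BCV of 0.4 and at the estimated BCV of 0.481, the values of 3.0 (RKO pair), -1.41 (RKO against HCT116) and 1.47 (RKO-R against HCT116-R) were no longer called, nor was the difference of 2.64 between the lines at a BCV of 0.4. A wider assumed spread raises every p by construction. In the HCT116 pair miR-210-3p was called under 0 of 13 alternatives. For miR-210-5p between RKO-R and HCT116-R, which was not called, the sign turned from 0.22 to -0.11 by library totals, -0.0155 with TMM over 4 libraries, -0.0152 with 5 reference miRNAs and -0.0047 without the most abundant miRNAs; the cause was not tested. The number of all miRNAs called in the HCT116 and RKO pairs, 53 and 64, was 154 and 148 at a BCV of 0.1, 24 and 9 at 0.4, and 149 and 148 by unadjusted p. Of the hypoxia-induced list, 2 and 3 were called, against 5 and 6 at a BCV of 0.1 and 1 and 1 at 0.4. Of the 5 profiles nearest to miR-210-3p, 2 were shared with a minimum of 10 counts and 4 with TMM-scaled CPM. The SE of the miR-210-3p ratio in the RKO pair was 0.298 at a BCV of 0.1, 0.462 at 0.2 and 0.844 at 0.4, so the assumed BCV sets much of it.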

Other observations

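An edgeR quasi-likelihood fit of all 4 libraries, with a term for the line and a term for radioresistance, gave miR-210-3p a log2 ratio of 1.62 and miR-210-5p a log2 ratio of 1.49 between radioresistant and parental libraries. Neither passed the test over 598 miRNAs (adjusted p = 0.998 for both, edgeR quasi-likelihood test). In this fit the unequal change of the lines counts as spread.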
